A study of Homo sapiens with 6 samples.

Results

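Keratins are the intermediate filament proteins of epithelial cells, and 10 keratin genes of ductal and carcinoma cells were followed here out of 20461 genes in the expression table. They were the type I genes KRT10, KRT15, KRT17, KRT18 and KRT19, and the type II genes KRT7, KRT8, KRT80, KRT81 and KRT86. These genes and the gene lists below were chosen with earlier results of these data known. PANC1, an established human pancreatic carcinoma cell line, was treated for 48 h with vehicle (0.1% DMSO) or with 50 nM gemcitabine, a nucleoside analogue given as chemotherapy for pancreatic cancer. Both conditions were grown in the same medium, with dialyzed and charcoal-stripped serum. Gene expression was measured by RNA-seq in 2 biological replicates of each condition, and open chromatin by DNaseI-seq in 1 library of each condition. All libraries came from a single cell line, so the values describe PANC1 cultures and not ducts or tumours in general.

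Keratin filaments are built from obligate pairs of an acidic type I and a basic type II chain, anchored to desmosomes and hemidesmosomes through plakin proteins. The KRT8 and KRT18 pair is the base of the filament network in simple epithelia, to which the pancreatic duct adds KRT7 and KRT19. KRT17 belongs to basal cells, epithelial appendages and injured epidermis and marks basal-like carcinomas, KRT15 to basal keratinocytes and the hair follicle bulge, KRT10 to differentiating epidermis, and KRT81 and KRT86 to the hair cortex.

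The type II members and KRT18 lie in the keratin cluster of chromosome 12, and the other type I members in the cluster of chromosome 17 (hg19). Most had no DNaseI-seq peak at their gene start, and 4 accessible regions near members are shown because the open chromatin results turn on them. Each holds 200 bases, written 5′ to 3′ on the strand of the named gene, and none overlaps an annotated exon. The KRT18 and KRT19 windows are the centre of a peak, and the KRT80 and KRT8 windows are the middle of the overlap between the vehicle and gemcitabine peaks. The KRT80 region is chr12:52586064-52586263 (minus strand, positions -465 to -266 from the KRT80 start). The KRT8 region is chr12:53321089-53321288 (minus strand, inside an intron of the long KRT8 gene model and upstream of the canonical KRT8 start). The KRT18 region is chr12:53339749-53339948 (plus strand, upstream of KRT18 and inside an intron of the long KRT8 gene model). The KRT19 region is chr17:39686784-39686983 (minus strand, upstream of KRT19). Capitals mark the AP-1 motif TGANTCA in the KRT80 and KRT8 regions and the TEAD motif GGAATG in the KRT18 region, each searched on both strands.
KRT80 start, both conditions: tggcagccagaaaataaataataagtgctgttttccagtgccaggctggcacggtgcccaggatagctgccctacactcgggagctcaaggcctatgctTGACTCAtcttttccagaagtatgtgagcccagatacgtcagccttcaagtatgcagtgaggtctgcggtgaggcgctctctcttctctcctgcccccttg
KRT8 intron, both conditions: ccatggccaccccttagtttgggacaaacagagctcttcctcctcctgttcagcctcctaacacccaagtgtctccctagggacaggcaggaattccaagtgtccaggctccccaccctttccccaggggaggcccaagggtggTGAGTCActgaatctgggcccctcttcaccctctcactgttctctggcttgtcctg
KRT18 upstream, vehicle only: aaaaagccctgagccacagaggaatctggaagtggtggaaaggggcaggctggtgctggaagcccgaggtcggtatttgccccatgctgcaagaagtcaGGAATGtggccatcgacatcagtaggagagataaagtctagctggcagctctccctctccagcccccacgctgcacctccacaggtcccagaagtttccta
KRT19 upstream, gemcitabine only: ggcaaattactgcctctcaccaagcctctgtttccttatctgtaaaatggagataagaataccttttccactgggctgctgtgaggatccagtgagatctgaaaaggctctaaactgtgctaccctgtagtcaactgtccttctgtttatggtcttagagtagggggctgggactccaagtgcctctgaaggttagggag
Neither of those motifs, nor the SP/KLF motif GGGCGG or the TATA motif TATAAA, was found in the KRT19 window. Over all peak centres of the same length, the AP-1 motif was present in 16.9% of vehicle peaks and 13.8% of gemcitabine peaks, and the TEAD motif in 14.6% and 13.9%. The SP/KLF motif was in 22.7% of vehicle and 24.2% of gemcitabine centres, and the TATA motif in 13.2% and 11.5%. The KRT80 window is not centred on a peak of either list, so these shares are not a background for it. The KRT8 window is the centre of the vehicle peak, which lies within the gemcitabine peak, so only the vehicle shares apply to it. The matches are descriptions of the letters and not of bound factors.

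The RNA-seq libraries held 15153593 and 15766237 fragments on genes for vehicle and 13194533 and 13275457 for gemcitabine, and 3 fragments, the most that a count of 0 allows, corresponded to 0.190 to 0.227 CPM (fragments scaled to a common library size). Of the duct markers, KRT7 and MUC1 were high, at mean FPKM (fragments scaled by transcript length and library size) of 1604 and 122 in vehicle, while CDH1 had 4 to 13 fragments per library and CFTR 3 to 16. EPCAM had 45 to 80 fragments and KRT19 45 to 94, so these defining duct markers were at low levels in this line. Acinar markers summed to 1 to 2 fragments per library, islet markers to 1 to 8, leukocyte markers to 2 to 10 and endothelial markers to 8 to 34. Of the 6 fibroblast and stellate markers, COL1A1 and COL3A1 had mean vehicle FPKM of 866 and 533 and ACTA2 of 57.0, while COL1A2 had 0 to 3 fragments per library, DCN 24 to 39 and LUM 67 to 116.

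Gemcitabine moved the keratins in both directions. The low-level keratins KRT15, KRT19 and KRT81 rose 2.18-fold to 4.92-fold, the simple-epithelial pair KRT8 and KRT18 rose by 1.22-fold and 1.21-fold, and KRT7, KRT17 and KRT10 fell to 0.885, 0.832 and 0.816 of their vehicle level. KRT80 and KRT86 did not pass the test. Calling a gene required an adjusted p under 0.05 (edgeR, quasi-likelihood), a fold over 1.5, a mean of 0.1 FPKM or more in either condition, and means that differed by 1 FPKM or more. By these criteria 3 of 10 keratins were called, all higher and none lower, against 10.1% of the 14854 genes tested in either direction, 5.69% higher and 4.42% lower. On adjusted p alone 8 of 10 passed, 5 higher and 3 lower, against 38.5% of all tested genes, 18.5% higher and 20.0% lower. Because the members were chosen with earlier results known, these counts describe the list and do not test it against the background. The median log2 fold change was 0.12 for the 10 keratins and 0.0069 for all tested genes. In bulk libraries, fewer cells with a transcript and less transcript per cell cannot be told apart.

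**Figure D1:**
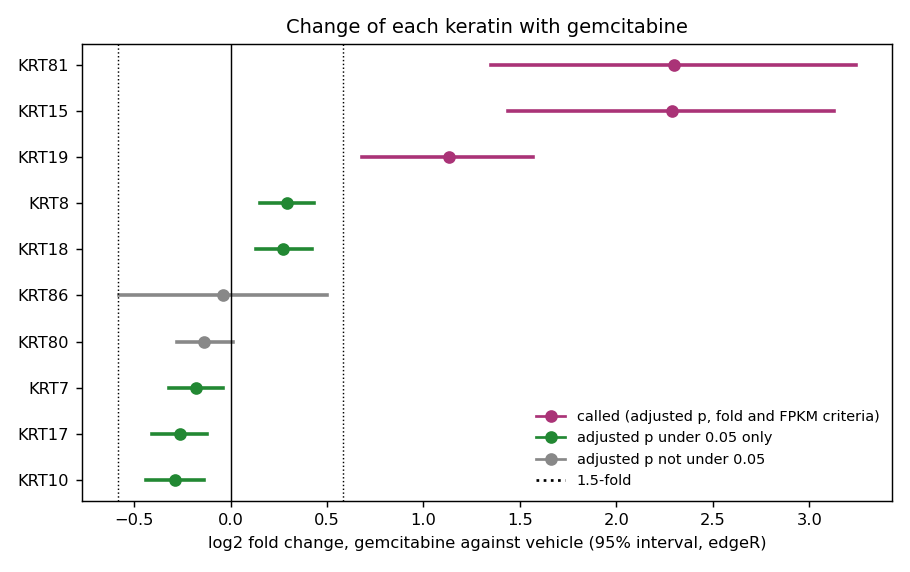
log2 fold change of each keratin, gemcitabine against vehicle, as points with the 95% interval from edgeR (2 libraries per condition) and dotted lines at a 1.5-fold change. KRT81, KRT15 and KRT19 lie past the upper line, with estimates of 2.30, 2.29 and 1.13, and the other 7 keratins lie between the lines.

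KRT8 and KRT18, the partner chains of simple epithelia, rose together. KRT8 (chromosome 12, 53290971 to 53343738, minus strand) had 501 and 471 FPKM in vehicle and 650 and 613 FPKM in gemcitabine. KRT18 (chromosome 12, 53342655 to 53346690, plus strand) had 356 and 336 FPKM in vehicle and 472 and 427 FPKM in gemcitabine. For both genes each gemcitabine library was above both vehicle libraries. The log2 fold change was 0.29 for KRT8 (SE 0.0656, 95% interval 0.15 to 0.43, edgeR adjusted p = 0.00319). For KRT18 it was 0.27 (SE 0.0685, 95% interval 0.13 to 0.42, edgeR adjusted p = 0.00586). Both intervals end below the 1.5-fold line, and neither gene was called. The fragment ratio of KRT8 to KRT18 was 1.77 and 1.81 in vehicle and 1.78 and 1.84 in gemcitabine, so the proportion of the pair moved little while its summed level rose 1.21-fold. Both changes missed an adjusted p of 0.05 when either vehicle library was left out. For KRT8 the edgeR adjusted p was then 0.0718 without vehicle replicate 1 and 0.118 without replicate 2, and for KRT18 it was 0.0711 and 0.157, with log2 fold changes of 0.24 to 0.32. The 2 gene models overlap on opposite strands by 1084 bases, 525 of them exonic in both, and 54.3% of the 50-base stretches of the canonical KRT18 transcript and 39.2% of those of KRT8 also occur in another gene, pseudogenes included. Within the table the share was 24.2% for KRT18, mostly with KRT8, and 1.1% for KRT8. Whether the counting used strand was not given in the sources used here, so reads over that overlap cannot be told apart.

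KRT7, the type II keratin of ducts and glands, fell slightly and stayed among the most abundant transcripts. It lies on chromosome 12 from 52626304 to 52645970 (plus strand) and had 1658 and 1551 FPKM in vehicle and 1491 and 1498 FPKM in gemcitabine. Its log2 fold change was -0.18 (SE 0.0647, 95% interval -0.32 to -0.04, edgeR adjusted p = 0.0426). The lowest vehicle library was above both gemcitabine libraries, by a small margin. This change passed narrowly: the edgeR adjusted p was 0.379 with library totals in place of TMM scaling, 0.0513 with the replicate index as a block, 0.342 without vehicle replicate 1 and 0.238 without vehicle replicate 2. Because KRT8 rose while KRT7 fell, the FPKM ratio of KRT7 to KRT8 was 3.31 and 3.29 in vehicle and 2.29 and 2.45 in gemcitabine.

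KRT19, the other duct keratin and the smallest of the family, was far less abundant than KRT7. It lies on chromosome 17 from 39679869 to 39684560 (minus strand) and had 45 and 45 fragments in vehicle and 94 and 88 fragments in gemcitabine. In FPKM these were 3.22 and 3.05 against 5.83 and 6.91. Both gemcitabine libraries exceeded both vehicle libraries, and the log2 fold change was 1.13 (SE 0.208, 95% interval 0.68 to 1.57, edgeR adjusted p = 6.51e-04). In fits that left out 1 library the log2 fold change was 1.09 to 1.17.

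KRT17, the basal and injury-associated type I keratin, collected more fragments than any other member. It lies on chromosome 17 from 39775694 to 39781094 (minus strand), with 32325 and 32881 fragments in vehicle and 24380 and 25764 in gemcitabine. Its FPKM were 1535 and 1440 in vehicle and 1296 and 1385 in gemcitabine, and the conditions did not overlap. The log2 fold change was -0.26 (SE 0.0676, 95% interval -0.41 to -0.12, edgeR adjusted p = 0.00642). KRT10, the suprabasal type I keratin (chromosome 17, 38974369 to 38978866, minus strand), had 49.6 and 47.7 FPKM in vehicle and 40.8 and 44.9 FPKM in gemcitabine. It fell by 0.29 on the log2 scale (SE 0.071, 95% interval -0.44 to -0.14, edgeR adjusted p = 0.00463). KRT10 shares 61 exonic bases with the antisense gene KRT10-AS1. Like KRT8 and KRT18, both falls missed the adjusted p of 0.05 without either vehicle library: KRT17 had 0.168 without replicate 1 and 0.118 without replicate 2, and KRT10 had 0.087 and 0.0849. With limma on log2(FPKM + 1) the estimates were -0.15 for KRT17 and -0.18 for KRT10, with adjusted p of 0.268 and 0.245.

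KRT15, the type I keratin of basal keratinocytes and the follicle bulge, rose from a very low level. It lies beside KRT19 on chromosome 17 (39669997 to 39678781, minus strand), 1087 bases away. It had 7 and 11 fragments in vehicle and 50 and 32 in gemcitabine, which is 0.529 and 1.47 FPKM against 4.96 and 2.86 FPKM. The gemcitabine libraries were both above the vehicle libraries but differed from each other, and the log2 fold change was 2.29 (SE 0.397, 95% interval 1.44 to 3.13, edgeR adjusted p = 4.11e-04). On FPKM the change was smaller, 1.30 with a pseudocount of 1 and 1.96 with 0.1, and limma gave adjusted p of 0.0515 and 0.0595. Only 1.0% of the 50-base stretches of KRT15, and 1.8% of those of KRT19, occur in any other gene.

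KRT81, a type II keratin of the hair cortex, rose by a similar factor, also from few fragments. It lies on chromosome 12 from 52679697 to 52685318 (minus strand) and had 6 and 9 fragments in vehicle and 25 and 44 in gemcitabine. The FPKM were 0.217 and 0.301 against 0.892 and 1.80, with no overlap between conditions. The log2 fold change was 2.30 (SE 0.442, 95% interval 1.35 to 3.24, edgeR adjusted p = 8.90e-04). It was no longer called without gemcitabine replicate 2, where its log2 fold change was 1.82 and the difference in FPKM fell short. With limma on log2(FPKM + 1) its estimate was 0.87 with an adjusted p of 0.0544, which also ended the call. KRT86, a neighbouring type II hair keratin (chromosome 12, 52643084 to 52702947, plus strand), had 44 and 46 fragments in vehicle and 41 and 40 in gemcitabine. Its log2 fold change was -0.04 (SE 0.253, 95% interval -0.58 to 0.50, edgeR adjusted p = 0.921). The sign turned to 0.07 with library totals. Of the 50-base stretches of KRT81, 38.4% also occur in KRT86, so the split of fragments between them is uncertain. Summed over both genes the fragments were 50 and 55 in vehicle and 66 and 84 in gemcitabine, 1.55-fold higher in CPM.

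KRT80, a type II keratin found near desmosomes, had 166 and 161 FPKM in vehicle and 153 and 166 in gemcitabine, so the conditions overlapped on this scale. It lies on chromosome 12 from 52562780 to 52585798 (minus strand). The log2 fold change was -0.14 (SE 0.0678, 95% interval -0.28 to 0.01, edgeR adjusted p = 0.126). Without gemcitabine replicate 2 the estimate was -0.19 with an edgeR adjusted p of 0.00191. In TMM-scaled CPM, all 10 members had conditions that did not overlap, against 69.7% of all tested genes.

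**Figure D2:**
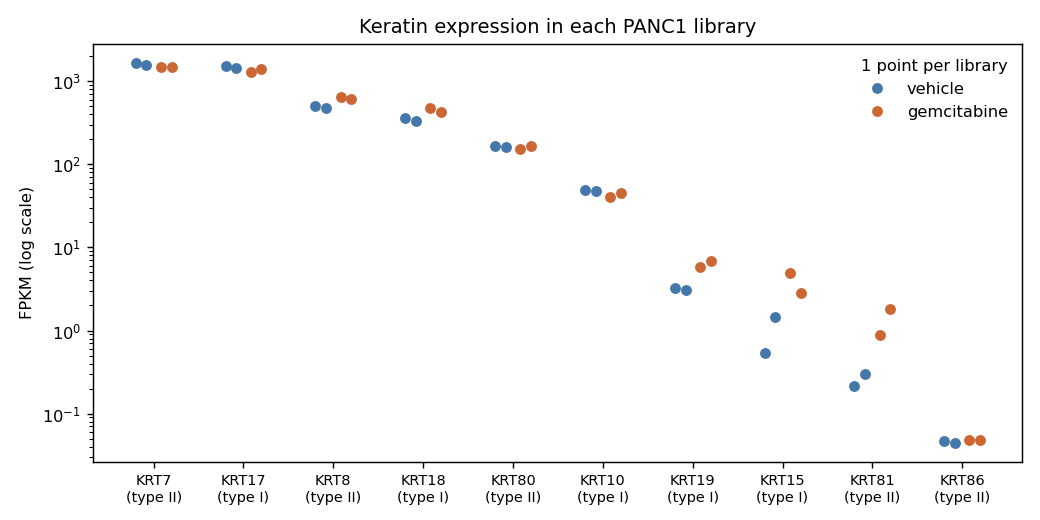
FPKM of each keratin on a log axis, 1 point per RNA-seq library, ordered by mean vehicle level. Levels run from 1658 FPKM for KRT7 to 0.0446 FPKM for KRT86, and the gemcitabine points of KRT8, KRT18, KRT19, KRT15 and KRT81 all lie above their vehicle points.

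The keratin programme of these cells was dominated by a few genes. KRT7, KRT8, KRT17, KRT18 and KRT80 held 97.9% to 98% of the fragments on the 10 members, and the members together held 0.503% to 0.515% of each library. By vehicle FPKM, KRT7 ranked 49 and KRT17 ranked 57 among all genes, followed by KRT8 at 226, KRT18 at 330, KRT80 at 833 and KRT10 at 3025. KRT19, KRT15, KRT81 and KRT86 ranked 10422, 11761, 13028 and 14445. In vehicle no neighbouring pair in this order overlapped, but some gaps were smaller than the spread within a gene. That held for KRT7 (1658 and 1551 FPKM) and KRT17 (1535 and 1440 FPKM). It also held for KRT15 (0.529 and 1.47 FPKM) and KRT81 (0.217 and 0.301 FPKM). Within each vehicle library, however, the FPKM ratio of KRT7 to KRT17 was 1.08.

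The order at the top and at the bottom depended on the length used. Per kilobase of the canonical transcript, scaled by library totals, KRT17 had 1410 and 1370 CPM in vehicle and KRT7 had 703 and 689, so KRT17 led and the ratio of KRT7 to KRT17 was 0.501 in place of 1.08 by FPKM. On the same scale KRT86, last by FPKM, had 1.30 CPM per kilobase in both vehicle libraries. That placed it above KRT15, at 0.27 and 0.408, and KRT81, at 0.205 and 0.296. Dividing fragments by FPKM gave an implied length for KRT7 of 0.69 to 0.741 kb, against a canonical transcript of 1625 bases. For KRT86 the implied length was 62.9 to 65.6 kb against 2247 bases, so its FPKM of about 0.0455 is out of line with its 40 to 46 fragments. KRT15 had implied lengths of 0.473 to 0.873 kb that differed between libraries. For KRT80, KRT10 and KRT81 the implied length was near the canonical one, 3.90 to 4.07 kb against 3873 bases for KRT80.

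**Figure D3:**
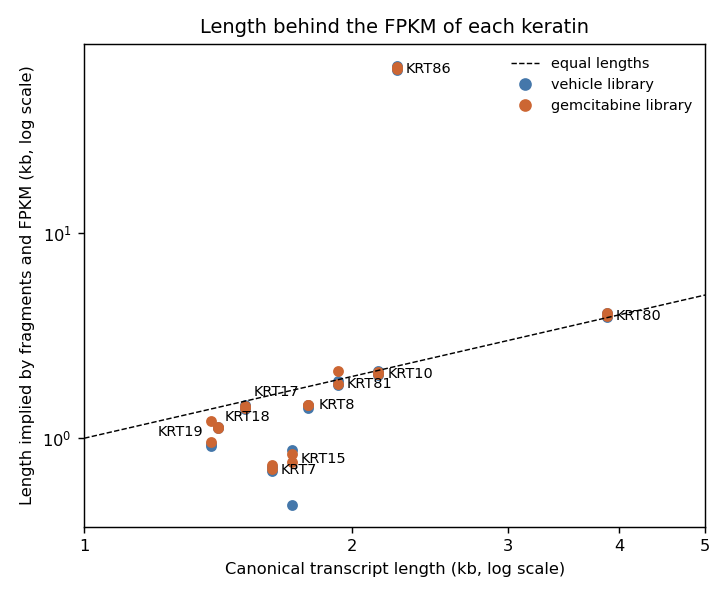
Length implied by fragments and FPKM against the length of the canonical transcript, both in kb on log axes, 1 point per library and keratin, with a dashed line of equal lengths. KRT86 lies far above the line at 62.9 to 65.6 kb, and KRT7 and KRT15 lie below it.

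The make-up of the keratin fragments shifted with gemcitabine. KRT17 took 41.5% and 41.4% of them in vehicle and 35.9% and 37.8% in gemcitabine. KRT8 took 13.7% and 13.6% in vehicle and 18.3% and 17.3% in gemcitabine, and KRT18 7.76% and 7.52% against 10.3% and 9.40%. The share of KRT7 changed less, from 22.3% in both vehicle libraries to 21.5% and 20.6%, and that of KRT80 was 12.6% and 13.0% against 12.1% and 12.8%. These shares sum to a whole, so a rise of one gene lowers the others. Summed FPKM of the type I members were 1944 and 1828 in vehicle and 1820 and 1866 in gemcitabine, and those of the type II members 2325 and 2183 against 2294 and 2279. On FPKM neither sum separated the conditions, and the ratio of type II to type I was 1.20 and 1.19 in vehicle and 1.26 and 1.22 in gemcitabine. In CPM, which is not per length, both sums separated them. The type I sum was 2636 and 2568 CPM in vehicle and 2475 and 2525 in gemcitabine, and the type II sum 2500 and 2464 against 2673 and 2607. With TMM sizes the type II sum instead lay lower in gemcitabine, at 2607 and 2551 CPM against 2541 and 2541, so its direction depended on the scaling. The type I sum kept its direction there, at 2749 and 2659 CPM against 2352 and 2461. In CPM the ratio of type II to type I was 0.948 and 0.959 in vehicle and 1.08 and 1.03 in gemcitabine. The type II sum in FPKM, and so the FPKM ratio, rests mostly on KRT7, at 1658 and 1551 FPKM in vehicle. The length implied by its FPKM was 0.69 to 0.741 kb against a canonical 1625 bases, so the size of that ratio depends on the length used.

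**Figure D4:**
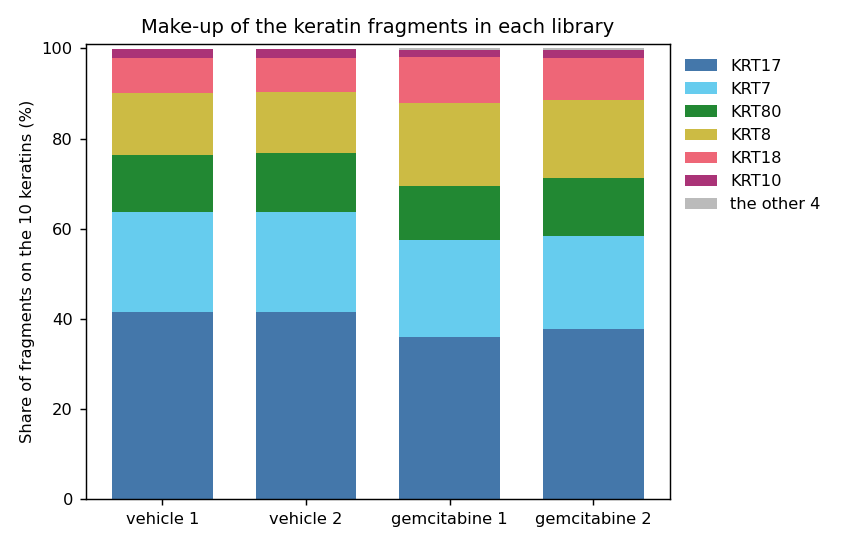
Share of the fragments on the 10 keratins taken by each gene, in percent, 1 stacked bar per RNA-seq library. KRT17 falls from 41.5% and 41.4% in vehicle to 35.9% and 37.8% in gemcitabine, while the KRT8 and KRT18 segments widen.

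The rest of the keratin family was silent or at low levels, in the range of the members KRT15, KRT19, KRT81 and KRT86. In vehicle KRT20 had 39 and 45 fragments and KRT12 had 50 and 43, against 44 and 46 for KRT86. Of 45 other keratin genes, 23 had 0 fragments in all 4 libraries, 11 had between 1 and 9 fragments in total and 11 were tested, with no more than 56 fragments in any library. None of the 11 was called, against 10.1% of all tested genes, but a difference of 1 FPKM is hard to reach at such low levels. KRT4, KRT78 and KRT83 missed only that criterion, with differences of 0.658, 0.422 and 0.419 FPKM. On adjusted p none was lower, against 20.0% of all tested genes, and 3 were higher, against 18.5%. They were KRT4, a mucosal type II keratin (3 and 2 fragments in vehicle, 23 and 19 in gemcitabine, log2 fold change 3.12), KRT78 (4 and 2 against 14 and 10, log2 fold change 2.07) and the hair keratin KRT83 (2 and 3 against 12 and 14, log2 fold change 2.43). Of the 50-base stretches of KRT81, 6.2% also occur in KRT83, so the split of fragments between these 2 genes is uncertain as well. Summed over KRT81, KRT83, KRT85 and KRT86, TMM-scaled CPM was 1.74-fold higher in gemcitabine. The epidermal keratins KRT14 and KRT16 did not pass, with 11 and 5 against 2 and 8 fragments for KRT14 and 12 and 18 against 22 and 27 for KRT16. Nor did KRT12, KRT20, KRT23, KRT34, KRT39 and KRT40. Over all 11 tested, the median change was 0.82 on the log2 scale.

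Among 20 basal and squamous genes, 11 were tested and 6 had 0 fragments throughout. Of the 11, 5 were called higher and none lower, against 5.69% and 4.42% of all tested genes. The median change of the 11 was 0.82 on the log2 scale, against 0.0069 over all tested genes. The list includes KRT4, KRT14 and KRT16 of the previous paragraph, so its median is not independent of the median given there. Among the called genes were the laminin chain LAMB3 (log2 fold change 0.82), the hemidesmosomal integrin ITGB4 (0.67), the calcium-binding S100A2 (0.94) and TRIM29 (0.59). LAMB3 had 1599 and 1651 fragments in vehicle and 2443 and 2867 in gemcitabine, and S100A2 had 232 and 223 against 414 and 393. SFN, one of the 3 with the highest FPKM of the list, had a log2 fold change of 0.13 with an edgeR adjusted p of 0.198.

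Among the desmosome and plakin genes that anchor keratin filaments, the table held 19, of which 15 were tested. None was called, against 10.1% of all tested genes. On adjusted p 2 were higher and 4 lower and the other 9 did not pass, a share near the 38.5% of all tested genes, and the median change was 0.03 (log2). The most abundant were the tetraspan PERP (log2 fold change 0.03, edgeR adjusted p = 0.762), plakoglobin JUP and plectin PLEC (0.03, adjusted p = 0.785). JUP rose by 0.54 on the log2 scale, from 3401 and 3438 fragments to 4512 and 4666 (edgeR adjusted p = 2.10e-05). Desmoplakin DSP, which ties keratins to the desmosome and is named after its values were seen, fell by 0.54, from 5172 and 5628 fragments to 3267 and 3583 (edgeR adjusted p = 3.89e-05).

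Of 15 other intermediate filament genes in the table, 12 were tested, and their median change was 0.04 (log2). Of the 12, 4 were called higher and 1 lower, against 5.69% and 4.42% of all tested genes. Those called higher were the muscle filament gene DES (60 and 55 fragments in vehicle, 216 and 196 in gemcitabine, log2 fold change 1.95), the neuronal PRPH (2.56), the progenitor-associated NES (0.84) and the glial GFAP (2.62, from 2 and 2 to 14 and 10 fragments). GFAP had 4.88 and 2.24 FPKM in vehicle and 5.57 and 8.2 FPKM in gemcitabine, high values for so few fragments. PRPH, with 15 fragments in each vehicle library, had 0.373 and 0.619 FPKM there. The GFAP call required a difference of 1 FPKM or more, so it depends on the length behind its FPKM. Whether GFAP would be called with its canonical length was not tested. The nuclear lamin LMNB1 fell by 0.76 on the log2 scale, from 3640 and 3497 fragments to 1753 and 2129. Lamin A/C, LMNA, and vimentin, VIM, the most abundant of the list, had log2 fold changes of -0.10 and 0.03, with edgeR adjusted p of 0.297 and 0.803.

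Open chromatin was compared as lists of MACS peaks, 9606 in vehicle and 10695 in gemcitabine, each called on 1 library at a p-value of 1e-05. There is no replicate check, and a peak missing from 1 list may lie just under the threshold, which is a score of 50. Only KRT80 had a peak within 1 kb of its gene start, in each condition, which is 1 of 10 members against 18.3% of named genes in vehicle and 21.1% in gemcitabine. The KRT80 peak, which holds the KRT80 window printed above, had a score of 125.8 in vehicle and 91.01 in gemcitabine, and KRT80 was a gene whose expression did not pass the test. The most abundant members, KRT7 and KRT17, had none at the gene start, although in vehicle KRT7 and KRT8 had one within 1 kb of the start of another annotated transcript, and KRT17 had no peak within 20 kb. Within 5 kb the counts were 4 of 10 members in vehicle (KRT8, KRT18, KRT80 and KRT86) against 21.7% of genes, and 3 of 10 in gemcitabine (KRT10, KRT19 and KRT80) against 25.0%. In vehicle KRT8 and KRT18 were counted through the same peak, and KRT86 through a peak inside KRT7. From the starts of the canonical transcripts, these peaks lay 40223 bases away for KRT8 and 29759 bases away for KRT86.

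Several peaks near members were listed in 1 condition only. Upstream of KRT19 a gemcitabine peak (chromosome 17, 39686276 to 39687493, score 67.38) lay 1716 bases from the start, and 7495 bases from the start of KRT15. Both genes rose, and no vehicle peak overlapped it. Upstream of KRT10, which fell, a gemcitabine peak with a score of 52.36 lay 2367 bases from the start. A vehicle peak (chromosome 12, 53339083 to 53340616, score 68.26) lay 2039 bases upstream of KRT18, which rose, and inside the long KRT8 model. KRT7, which fell, held a vehicle peak with a score of 65.03. Peaks listed only in gemcitabine thus stood near KRT19 and KRT15, which rose, and near KRT10, which fell, and these 4 scores ran from 52.36 to 68.26.

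Inside the long KRT8 gene model a peak was listed in both conditions, with a score of 57.35 in vehicle and 67.09 in gemcitabine. It lay upstream of the canonical KRT8 start, 21818 bases away in vehicle and 21216 bases away in gemcitabine. The gemcitabine peak ran from 53320076 to 53321749 and the vehicle peak from 53320678 to 53321700. The KRT8 promoter entry of RefSeq (GRCh38.p14), matched by sequence to hg19, occupied 53320204 to 53320503, within the gemcitabine peak and outside the vehicle peak. A peak near KRT81 and inside KRT86 was listed in both conditions with scores of 115.66 and 131.15.

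**Figure D5:**
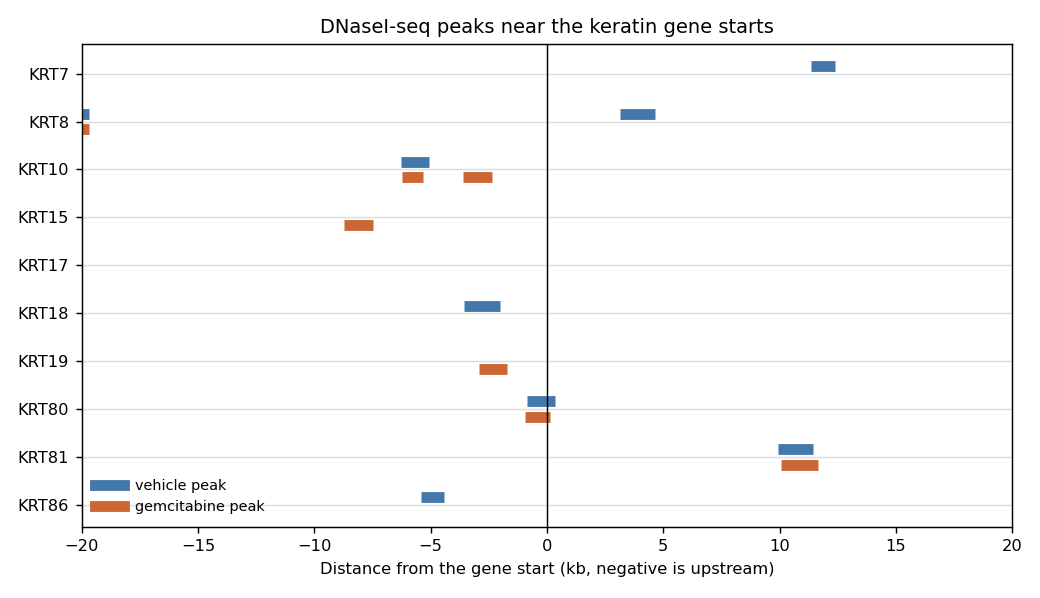
Position of DNaseI-seq peaks relative to each keratin gene start, in kb, with negative values upstream and the bar length equal to the peak length (1 library per condition; peaks more than 20 kb from a start, such as those inside KRT86 and near the KRT8 promoter entry, are not drawn). KRT80 alone has peaks at its start in both conditions, and KRT17 has none in the window.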

How the data were processed

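RNA was measured in 4 libraries and open chromatin in 2. Per the labels and the study's methods, the authors mapped single-end reads (hg19, TopHat2 2.0.8) and ran Cuffdiff 2.0.2 on protein-coding genes, depositing estimated counts (raw fragments) and FPKM per gene and library; 2 further value columns were not used. The deposited peak scores are the MACS score, minus 10 log10 of the p-value; the DNaseI aligner is not given in the sources used here. Estimated counts, of which 86.8% were whole to within 1e-06, were rounded. The 14854 genes whose fragments summed to 10 or more were fitted with edgeR 4.0.16 (TMM scaling, quasi-likelihood test, Benjamini-Hochberg adjustment over all of them) in R 4.3.3, and the code was tested on simulated data. Alternatives used DESeq2 1.42.0, limma 3.58.1 and other scalings, filters and library sets. In 275 genes Cuffdiff failed in at least 1 library, none of them a member. The replicate index of the table could not be tied to the labels' replicate numbers, so replicate 1 and 2 only name libraries. The members and gene lists were chosen with earlier results of these data known. Named were all members, other keratins that passed the filter (summarised beyond 10), and, of the other lists, the called genes and the 3 with the highest mean FPKM, except 1 gene that is not reported here. Gene positions and transcripts are from Gencode lifted to hg19. Intervals cover 2 libraries per condition; the limit for a count of 0 covers counting error only. Among the members, promoter entries were found for KRT8 and KRT10.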

Additional observations from a re-analysis of the deposited data

How the results depend on the processing

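With 2 libraries per condition the spread rests on few samples, and fold changes of KRT15 and KRT81 rest on 6 to 50 fragments per library. DESeq2, its size factors, both other count filters and a replicate block gave 3 keratins called higher and none lower. The replicate index could not be tied to the labels; same-index deviations correlated at -0.017, and the replicate block moved 1 member across the adjusted p of 0.05, KRT7, to 0.0513 (log2 fold change -0.18), with 844 genes called higher and 661 lower in place of 845 and 656.

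On library totals 1164 genes were called higher and 418 lower, since the median of all genes moved from 0.0069 to 0.12 on the log2 scale, and KRT86 turned from -0.04 to 0.07. With limma on log2(FPKM + 1), 1 keratin was called higher, 3 were higher and 0 lower on adjusted p, 326 of all genes were called lower and 0 of the other listed genes were. With a pseudocount of 0.1, 0 keratins were lower on adjusted p, 350 of all genes were called lower and 0 of the other listed genes were. The cause was not tested. In CPM the type I sum had a ratio of 0.89 with TMM sizes, and the type II sum 1.06 with library totals, in place of 0.977 and 1.01.

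Leaving out 1 library at a time leaves an arm of 1, which is assumed to vary like the other condition. It gave 2 to 3 keratins called higher, 3 to 5 higher and 0 to 4 lower on adjusted p, 674 to 923 of all genes called higher and 594 to 771 lower, and 7 to 9 of the other listed genes called higher and 1 to 3 lower. The counts of 3 higher and 0 lower came without vehicle replicate 1 and without vehicle replicate 2, where fewer of all genes passed as well, 1289 and 1225 higher in place of 2751. The type I ratio ranged from 0.948 to 1.01 and the type II ratio from 0.984 to 1.05. Peaks at a start in vehicle were found for 4 members within 5 kb and 3 at any transcript start, and in gemcitabine for 3 and 2, and for 0 at a score of at least 100. The start of the canonical transcript and the canonical length were tried after seeing the data.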
